A study of Mus musculus with 20 samples.

Results

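The immediate-early genes described here were 9 named genes, Atf3, Fos, Jun, Junb, Egr1, Ier2, Dusp1, Zfp36, and Nr4a1, of the 12701 genes counted in proximal colon (PC) RNA. They were taken by name, and all 9 were in the count table. The libraries came from 20 C57BL/6 mice, an inbred laboratory strain, that started the Total Western Diet (TWD), made to mirror what Americans eat, at 3 weeks of age. After 6 weeks on the TWD alone, every mouse ate the TWD for 3 further weeks with 0, 2, 5, or 10% resistant potato starch (RPS), a dietary fibre that gut microbes ferment in the large bowel, with 5 mice per diet. All 4 groups therefore share the TWD, and no group ate another basal diet. RNA came from a whole-wall segment of the PC near the cecum, so each library mixes epithelium, muscle, and other layers, and fewer cells of a type cannot be told apart from less RNA per cell.

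Immediate-early genes are transcribed within minutes of a stimulus from preformed transcription factors, before any new protein is made, and their mRNAs decay quickly. Growth factor and MAP kinase signals reach many of them through serum response factor at the CArG box and through CREB-type factors at the cAMP response element. The members fall into transcription factors of the AP-1 family (Fos, Jun, Junb), the stress-inducible ATF family member Atf3, the zinc finger factor Egr1, the orphan nuclear receptor Nr4a1, the nuclear protein Ier2, and the feedback regulators Dusp1, a MAP kinase phosphatase, and Zfp36, an RNA-binding protein that destabilises cytokine and other mRNAs. In the gut, they are expressed in epithelium, smooth muscle, and immune cells alike.

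The 500 bases before the start of each member's canonical GENCODE transcript (GRCm39) were searched on both strands for these elements, since members with correlated levels could be compared by what their promoters hold. The CArG box was present in 1 of the 9 windows, that of Fos, and in 2.76% of 12682 such windows over all genes. Each window depends on the annotated start site, and except for Zfp36 (below) no other start site was searched. Absence from a window, as for Egr1, is therefore not absence from the gene's promoter. The full cAMP response element TGACGTCA was present in Ier2 and Dusp1, and in 2.36% of all windows. Its core TGACG or CGTCA, which lies within the full element, was present in 7 members (Fos, Jun, Junb, Egr1, Ier2, Dusp1, and Nr4a1) and in 32.1% of all windows. It was not present in Atf3 or Zfp36, and the AP-1 site TGAGTCA or TGACTCA, present in 6.41% of all windows, was in none of the 9. For Zfp36, the RefSeq promoter table places a CArG box 58 to 49 bases before its own start site. GENCODE counts this base range as transcribed. Of the 32851 RefSeq windows, 1.47% hold a CArG box, but these windows are shorter than the GENCODE ones, so the shares are not directly comparable. The stretches below show these matches in capitals, 5′ to 3′ on the coding strand, with that of Atf3 as a member that holds none of them. They are chr12:85520313-85520612 (plus strand) for Fos, chr8:85389484-85389733 (minus) for Ier2, chr17:26727514-26727743 (minus) for Dusp1, chr1:190915538-190915787 (minus) for Atf3, and chr7:28078692-28078721 (minus) for Zfp36.
Fos: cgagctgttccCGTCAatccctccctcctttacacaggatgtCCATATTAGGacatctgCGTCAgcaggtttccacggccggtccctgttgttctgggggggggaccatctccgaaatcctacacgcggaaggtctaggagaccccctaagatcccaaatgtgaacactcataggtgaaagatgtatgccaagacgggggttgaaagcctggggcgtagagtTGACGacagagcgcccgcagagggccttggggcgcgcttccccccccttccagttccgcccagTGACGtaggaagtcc
Ier2: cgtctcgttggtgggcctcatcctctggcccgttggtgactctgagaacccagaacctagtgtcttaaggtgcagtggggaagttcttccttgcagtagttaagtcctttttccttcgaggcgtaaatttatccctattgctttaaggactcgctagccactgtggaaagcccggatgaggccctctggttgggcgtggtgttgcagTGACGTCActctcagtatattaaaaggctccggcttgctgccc
Dusp1: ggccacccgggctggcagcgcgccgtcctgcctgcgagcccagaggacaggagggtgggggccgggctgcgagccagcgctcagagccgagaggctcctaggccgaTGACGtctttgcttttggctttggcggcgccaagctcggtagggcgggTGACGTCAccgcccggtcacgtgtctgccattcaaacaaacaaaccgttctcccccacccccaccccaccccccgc
Atf3: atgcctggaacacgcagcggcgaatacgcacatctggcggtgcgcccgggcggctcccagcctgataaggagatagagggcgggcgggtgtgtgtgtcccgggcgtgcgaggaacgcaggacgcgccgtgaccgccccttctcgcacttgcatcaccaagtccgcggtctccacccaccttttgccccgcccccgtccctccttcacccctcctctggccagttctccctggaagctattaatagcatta
Zfp36: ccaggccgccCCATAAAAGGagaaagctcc
The Fos stretch ends 46 bases before the start site and holds the CArG box at 303 to 294 bases before it, together with 4 cores, the Ier2 element lies at 43 to 36 bases, and the Dusp1 element at 96 to 89 bases. A match is a string of letters, and binding was not measured here.

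The libraries held 20581013 to 35083751 counted reads, and all 9 members were well above the floor of 3 counts in every library. Per kilobase of canonical transcript and averaged over the 20 libraries, the order of levels was Fos (1717 normalised counts per kilobase), Zfp36 (1218), Ier2 (1125), Junb (1079), Jun (993), Dusp1 (386), Atf3 (292), Egr1 (274), and Nr4a1 (173). Fos was higher per kilobase than 91.8% of all genes and Nr4a1 than 40.7%. The 0% RPS replicate 2 library had the highest smooth muscle, fibroblast, and endothelium marker levels of the 20, and the 2% RPS replicate 3 library the highest blood marker level. Values without them are given for the calls of Atf3. The 50-base windows of 7 members occur in no other gene, while 1.97% of those of Zfp36 and 0.458% of those of Nr4a1 do. Junb, Dusp1, and Zfp36 overlap counted genes on the other strand (Prdx2, Ergic1, and Gm44710), and strand use in counting is not stated, so reads in the overlaps cannot be told apart. Across the 20 libraries the r of each with its overlapping gene was 0.19, 0.07, and -0.02, as a description.

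Atf3 (ENSMUSG00000026628, GRCm39 chromosome 1, 190902493 to 190950241, minus strand), a repressor or activator of stress-response genes depending on its partner, was the 1 member called changed in any comparison of diets. Its normalised counts were 430, 499, 295, 314 and 316 in replicates 1 to 5 at 0% RPS and 1182, 833, 798, 449 and 478 at 2% RPS. They were 693, 554, 448, 492 and 530 at 5% RPS and 681, 618, 773, 674 and 517 at 10% RPS. All 5 libraries at 10% RPS lay above the highest at 0% RPS, and 3 of 5 did so at 2% and at 5% RPS. The mean was 371 ± 89.2 at 0% RPS (SD, n = 5), 748.02 ± 299.9 at 2%, 544 ± 93 at 5%, and 653 ± 94.1 at 10% RPS. Atf3 rose at 2% RPS, on the log2 scale by 1.01 ± 0.22 (SE, adjusted p = 0.016) in DESeq2, and at 10% RPS by 0.82 ± 0.22 (SE, adjusted p = 0.012), folds of 2.02 and 1.76. At 5% RPS the value was 0.55 ± 0.22 (SE, adjusted p = 0.17), with a 95% confidence interval of 0.12 to 0.98. A gene was called at a Benjamini-Hochberg adjusted p of at most 0.05 over all genes and a fold of at least 1.5.

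The call at 2% RPS is 1 of 3 among 12561 genes tested, 0.0239% of them, and that at 10% RPS 1 of 113 among 12321, 0.917%. At 5% RPS no member was among the 55 of 12561 genes called (0.438%). By edgeR's quasi-likelihood test no member was called at any dose, with adjusted p for Atf3 of 0.59 at 2% and 0.070 at 10% RPS, beside 0, 0.0566, and 0.323% of all genes called at 2, 5, and 10% RPS. Two-sided unadjusted p fell under 0.05 for 3, 3, and 2 members by DESeq2, beside 8.7, 16.6, and 19.2% of all genes at 2, 5, and 10% RPS, and for 2, 3, and 2 by edgeR, beside 8.09, 15.9, and 18%. At 10% RPS the 2 of 9 members were thus near the share of all genes. Without 2% RPS replicate 1, the highest Atf3 library, the value at 2% RPS was 0.79 (adjusted p = 0.29), and without 0% RPS replicate 2 it was 1.14 (adjusted p = 0.0017). Without 2% RPS replicate 3 it was 0.99 (adjusted p = 0.044). The call at 2% RPS was also lost without 2% RPS replicate 2 or without 0% RPS replicate 3, 4, or 5, with adjusted p of 0.16, 0.053, 0.19, and 0.19. At 10% RPS, the value without 0% RPS replicate 2 was 0.95 (adjusted p = 0.0017) and without 2% RPS replicate 3 it was 0.82 (adjusted p = 0.014), whereas leaving out 0% RPS replicate 4, 0% RPS replicate 5, or 10% RPS replicate 3 gave 0.76, 0.76, and 0.75, with adjusted p of 0.052, 0.059, and 0.068. With the smooth muscle marker level as a covariate, the value at 5% RPS was 0.75 (adjusted p = 0.0077), past the threshold.

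**Figure D1:**
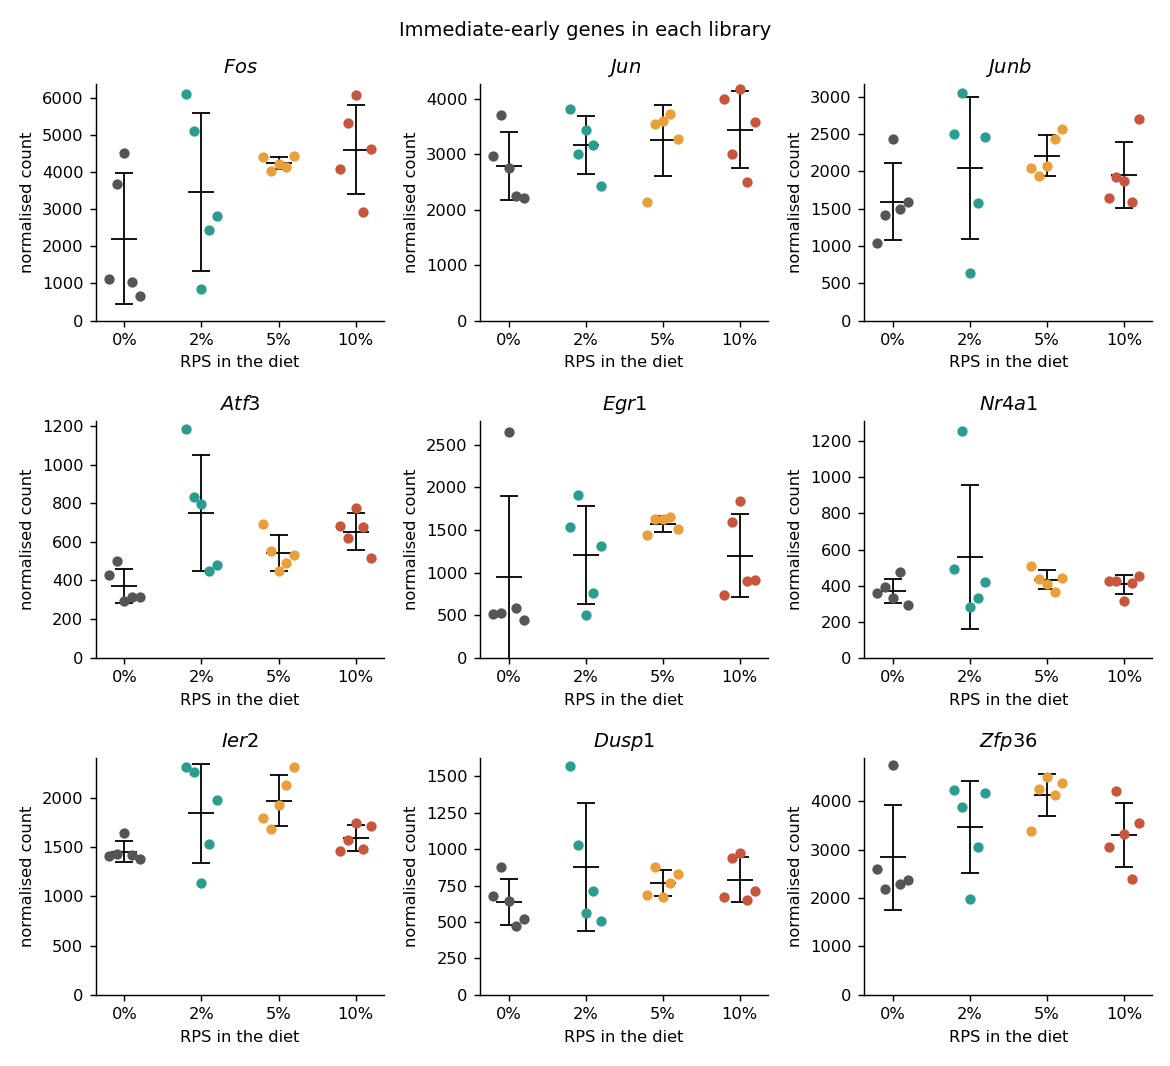
Normalised counts of the 9 immediate-early genes (linear y axes from 0) in each of the 20 libraries by RPS percent (x axis), with points for libraries in replicate order and the black bar and whiskers for the mean ± SD of 5; the lower whisker of Egr1 at 0% RPS passes 0 and is not drawn beyond it. The 5 Atf3 points at 10% RPS, 517 to 773, sit above all 5 at 0% RPS, 295 to 499, while Fos at 0% RPS spans 673 to 4515.

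Fos (ENSMUSG00000021250, chromosome 12, 85520658 to 85524047, plus strand), the AP-1 subunit that pairs with Jun proteins, was not called in any comparison. Its normalised counts were 1132, 3684, 4515, 1028 and 673 in replicates 1 to 5 at 0% RPS and 6102, 5119, 856, 2436 and 2817 at 2% RPS. They were 4399, 4034, 4209, 4132 and 4421 at 5% RPS and 4087, 5336, 6069, 2918 and 4626 at 10% RPS. At 0% RPS 3 libraries lay between 673 and 1132 and the other 2 at 3684 and 4515, whereas the 5 libraries at 5% RPS lay between 4034 and 4421. The groups overlapped at each dose. The log2 fold changes of Fos against 0% RPS were 0.65 ± 0.50 (SE, adjusted p = 0.72) at 2% RPS, 0.94 ± 0.50 (SE, adjusted p = 0.32) at 5% RPS, and 1.06 ± 0.50 (SE, adjusted p = 0.21) at 10% RPS. The intervals, -0.33 to 1.63, -0.04 to 1.92, and 0.08 to 2.04 at 2, 5, and 10% RPS, were wide, so the size of a change was poorly bounded. Without 0% RPS replicate 3, the highest 0% RPS library, the value at 10% RPS was 1.5 (adjusted p = 0.039), past the threshold. At 2 and 5% RPS it was 1.09 and 1.38 (adjusted p = 0.40 and 0.083), which were not. Leaving out a control picked for its high value raises the fold, so this is a description.

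Jun (ENSMUSG00000052684, chromosome 4, 94937271 to 94940459, minus strand) and Junb (ENSMUSG00000052837, chromosome 8, 85701113 to 85705359, minus strand) encode the Jun partners of AP-1. Jun ran from 2145 to 4177 normalised counts over all libraries, with means of 2785 ± 613, 3170.2 ± 517, 3258 ± 643, and 3449 ± 699 at 0, 2, 5, and 10% RPS (SD, n = 5). Its libraries overlapped between all diets, and the lowest of the 20 was 5% RPS replicate 1. Relative to 0% RPS, Jun had log2 fold changes of 0.19 ± 0.17 (SE, adjusted p = 0.78) at 2% RPS, 0.23 ± 0.17 (SE, adjusted p = 0.52) at 5% RPS, and 0.31 ± 0.17 (SE, adjusted p = 0.32) at 10% RPS. For Junb the counts were 1036, 1416, 2437, 1492 and 1592 at 0% RPS and 2500.1, 3058, 638, 1580.1 and 2458 at 2% RPS. They were 2045, 1944, 2076, 2434 and 2566 at 5% RPS and 1651, 1923, 1877, 1597 and 2704 at 10% RPS. The lowest Junb library was 2% RPS replicate 3 and the highest 2% RPS replicate 2, so the diet with both extremes was 2% RPS. Against the 0% RPS libraries, Junb had log2 fold changes of 0.36 ± 0.31 (SE, adjusted p = 0.76) at 2% RPS, 0.47 ± 0.31 (SE, adjusted p = 0.44) at 5% RPS, and 0.29 ± 0.31 (SE, adjusted p = 0.64) at 10% RPS. The upper bounds of the intervals at 10% RPS were 0.65 for Jun and 0.90 for Junb.

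Egr1 (ENSMUSG00000038418, chromosome 18, 34992876 to 34998049, plus strand), a zinc finger activator induced through serum response factor, had 1 control library far above the other 4. Its normalised counts were 516, 528, 2650, 579.8 and 443 in replicates 1 to 5 at 0% RPS and 1535, 1909, 505, 762 and 1318 at 2% RPS. They were 1441, 1628, 1630, 1653 and 1512 at 5% RPS and 739.7, 1599.6, 1838, 899 and 916 at 10% RPS. At 0% RPS replicate 3 was the highest of all 20 libraries and the other 4 lay between 443 and 580, below every library at 5 and 10% RPS and below 4 of the 5 at 2% RPS. The log2 fold changes of Egr1 against 0% RPS were 0.35 ± 0.47 (SE, adjusted p = 0.86) at 2% RPS, 0.74 ± 0.47 (SE, adjusted p = 0.43) at 5% RPS, and 0.35 ± 0.47 (SE, adjusted p = 0.73) at 10% RPS. With that library left out, the values at 5 and 10% RPS were 1.61 (adjusted p = 0.00067) and 1.21 (adjusted p = 0.0086), both past the threshold. At 2% RPS it was 1.22 (adjusted p = 0.11), which was not. The library was picked for its high value, and leaving it out raises the fold and lowers the spread. These values are therefore a description and no support for a change. That library was also the highest at 0% RPS for Fos, Junb, Ier2, and Zfp36, but the lowest for Atf3. Among the 0% RPS libraries it had the lowest smooth muscle marker level, 13.43 as mean log2 normalised count, and the highest epithelium marker level, 15.13. Its fibroblast, endothelium, enteric neuron and glia, macrophage and granulocyte, and fat and mesentery marker levels were also the lowest there. The part of these in its values was not tested.

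Nr4a1 (ENSMUSG00000023034, chromosome 15, 101151980 to 101172681, plus strand), an orphan nuclear receptor, had the lowest level of the 9. Its counts were 361, 390.5, 331, 475 and 293 at 0% RPS, 508, 435, 411, 363 and 444 at 5% RPS, and 425, 427, 314, 415 and 454 at 10% RPS. At 2% RPS they were 495, 1259, 281, 331 and 421. Replicate 2 at 2% RPS stood above every other library, and the remaining 19 lay between 281 and 508. Relative to 0% RPS, Nr4a1 had log2 fold changes of 0.59 ± 0.28 (SE, adjusted p = 0.53) at 2% RPS, 0.22 ± 0.28 (SE, adjusted p = 0.72) at 5% RPS, and 0.14 ± 0.28 (SE, adjusted p = 0.83) at 10% RPS. The value at 2% RPS rested on replicate 2, without which it was 0.04 (adjusted p = 0.99). Ier2 (ENSMUSG00000053560, chromosome 8, 85387960 to 85389483, minus strand), a small nuclear protein, varied least between mice among the 9. Its normalised counts were 1406, 1427, 1639, 1422 and 1374 in replicates 1 to 5 at 0% RPS and 2306, 2262, 1134, 1533 and 1974 at 2% RPS. They were 1791, 1682, 1926, 2134 and 2314 at 5% RPS and 1454, 1573, 1745, 1477 and 1708 at 10% RPS. All 5 libraries at 5% RPS were above the highest at 0% RPS, by 1682 against 1639 at the closest. Against the 0% RPS libraries, Ier2 had log2 fold changes of 0.34 ± 0.15 (SE, adjusted p = 0.49) at 2% RPS, 0.44 ± 0.15 (SE, adjusted p = 0.088) at 5% RPS, and 0.13 ± 0.15 (SE, adjusted p = 0.66) at 10% RPS. The value at 5% RPS came nearest to the threshold on p of any member that did not pass, and its fold, 1.35, was below the fold threshold. Groups in which every starch library exceeded every control library were found for 0 members at 2% RPS, 1 (Ier2) at 5% RPS, and 1 (Atf3) at 10% RPS, beside 0.478, 1.46, and 1.37% of all genes.

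Dusp1 (ENSMUSG00000024190, chromosome 17, 26724564 to 26781102, minus strand), the phosphatase that switches off p38, JNK, and ERK, was highest in the library with the most Atf3. Its normalised counts were 681, 878, 643, 469.9 and 518 in replicates 1 to 5 at 0% RPS and 1570.1, 1029, 561, 711.42 and 507 at 2% RPS. They were 683, 879, 673, 768 and 830.1 at 5% RPS and 673, 937, 976, 650.2 and 710.4 at 10% RPS. The 2% RPS replicate 1 library lay above all others, and the groups overlapped at each dose. The log2 fold changes of Dusp1 against 0% RPS were 0.46 ± 0.24 (SE, adjusted p = 0.58) at 2% RPS, 0.27 ± 0.24 (SE, adjusted p = 0.60) at 5% RPS, and 0.31 ± 0.24 (SE, adjusted p = 0.49) at 10% RPS. Without 2% RPS replicate 1, the value at 2% RPS was 0.14 (adjusted p = 0.90). Zfp36 (ENSMUSG00000044786, chromosome 7, 28076209 to 28079710, minus strand), or tristetraprolin, had means of 2842 ± 1078, 3468 ± 951, 4131 ± 441, and 3309 ± 668 at 0, 2, 5, and 10% RPS (SD, n = 5). Its counts at 0% RPS were 2602, 2193, 4752, 2292 and 2371, and at 5% RPS 3382, 4259, 4508, 4130.4 and 4373. As for Egr1, 1 library at 0% RPS stood above the other 4, which were lower than every library at 5% RPS. Relative to 0% RPS, Zfp36 had log2 fold changes of 0.29 ± 0.21 (SE, adjusted p = 0.70) at 2% RPS, 0.54 ± 0.21 (SE, adjusted p = 0.16) at 5% RPS, and 0.22 ± 0.21 (SE, adjusted p = 0.59) at 10% RPS. Without that library, 0% RPS replicate 3, Zfp36 had 0.80 (adjusted p = 0.0020) at 5% RPS, past the threshold. At 2 and 10% RPS it had 0.55 and 0.48 (adjusted p = 0.225 and 0.073), which were not. As for Egr1, the library was picked for its high value, so this is a description.

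**Figure D2:**
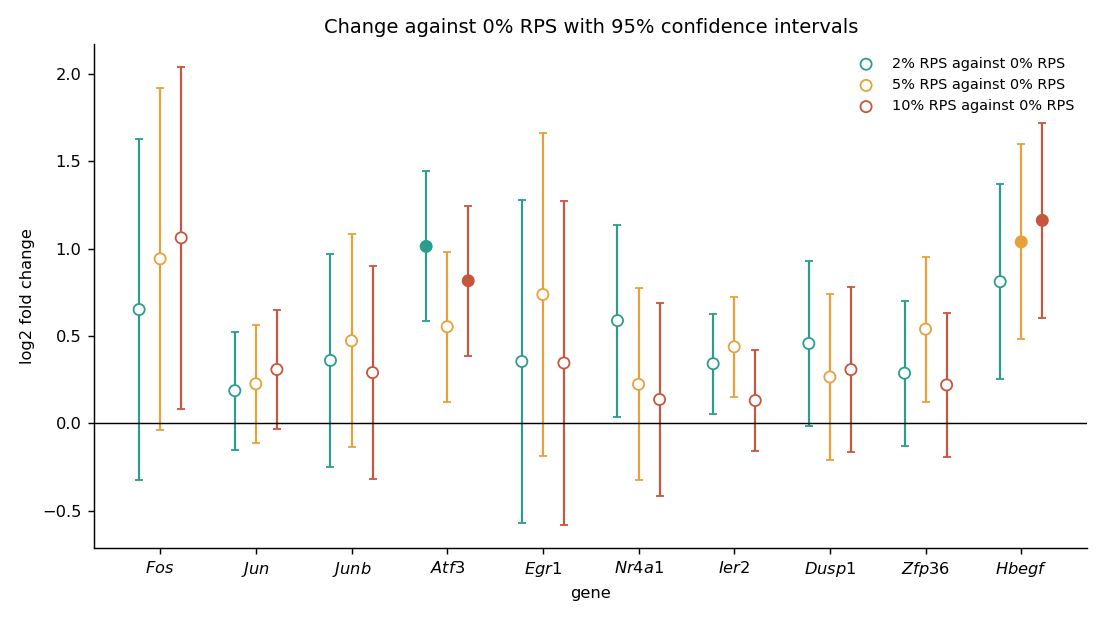
Log2 fold change (y axis) against 0% RPS of the 9 members and of Hbegf (x axis) at 2, 5, and 10% RPS by DESeq2, with bars for the 95% confidence interval; filled points passed adjusted p of at most 0.05 and a fold of at least 1.5. Filled points are Atf3 at 2 and 10% RPS and Hbegf at 5 and 10% RPS, and the bars of Fos and Egr1 are the widest.

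Over the 9 members, each log2 fold change against 0% RPS was above 0 in all 3 comparisons, with medians of 0.36 at 2%, 0.47 at 5%, and 0.31 at 10% RPS, beside medians over all genes tested of -0.01, -0.01, and 0. The 3 comparisons share the 5 libraries at 0% RPS and the members' levels are correlated, so these counts are not separate observations. Called members numbered 1, 0, and 1. No member had a linear trend over RPS percent at an adjusted p of at most 0.05, where 538 of 12545 genes did (4.29%). The steepest slope, that of Fos, was 0.09 ± 0.05 log2 units per percent RPS (SE, unadjusted p = 0.044 by DESeq2, adjusted p = 0.25), and unadjusted p was under 0.05 for 1 member by DESeq2 and 0 by edgeR, beside 19.1 and 18.3% of all genes. Between starch diets, no member was called in the 3 comparisons, in which 8 of 37683 gene tests were (0.0212%). Unadjusted p there fell under 0.05 for Atf3 (lower at 5% than at 2% RPS, -0.46) and Ier2 (lower at 10% than at 5% RPS, -0.31), by DESeq2 and by edgeR, beside 5.32 and 4.94% of all gene tests in these 3 comparisons.

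The members varied between mice of 1 diet more than most genes. The SD of log2 normalised counts within diets, pooled over the 4 diets, was 0.85 for Fos, 0.72 for Egr1, 0.53 for Junb, 0.46 for Nr4a1, 0.41 for Dusp1, 0.37 for Atf3 and for Zfp36, 0.30 for Jun, and 0.25 for Ier2. The median was 0.15 over the 11541 genes whose mean reached 100 normalised counts. Fos exceeded 99.5% of those genes and Ier2 82.4%. The spread was not even over the diets. For Fos the SD was 1.21 at 0% RPS, 1.11 at 2%, 0.057 at 5%, and 0.41 at 10% RPS, and for Egr1 1.07, 0.79, 0.086, and 0.57. At 5% RPS the SD of both was below the median over all genes at that diet, 0.12. The lowest SD of the 4 diets fell at 5% RPS for 6 of 9 members (Fos, Junb, Egr1, Dusp1, Zfp36, and Nr4a1) and for 38.2% of all genes, at 2% RPS for Jun, at 10% RPS for Atf3, and at 0% RPS for Ier2. These spreads are a description of 5 mice each, and their difference between diets was not tested.

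**Figure D3:**
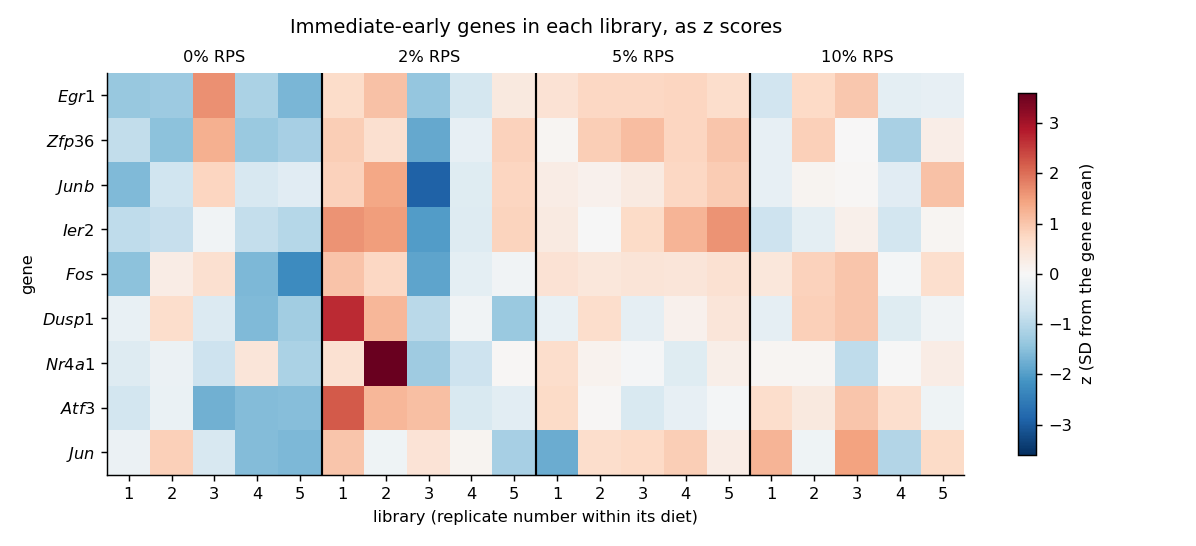
The 9 members (rows) in the 20 libraries (columns, by diet and replicate), coloured by z, the distance of the log2 normalised count from the gene's mean over all 20 in SDs. The columns 2% RPS replicates 1 and 2 are red in nearly every row and 2% RPS replicate 3 is blue in all but Atf3 and Jun, while the 5% RPS columns are pale red for Egr1 and Fos throughout.

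Averaged over the 9 members, z was highest in 2% RPS replicates 1 and 2 (1.27 and 1.23 SD) and lowest in 0% RPS replicate 5 (-1.34) and 2% RPS replicate 3 (-1.19). The 0% RPS libraries had -0.87, -0.34, 0.07, -1.09, and -1.34, and those at 2% RPS 1.27, 1.23, -1.19, -0.39, and -0.02. All 5 libraries at 5% RPS were above 0, from 0.11 to 0.61, and those at 10% RPS ran from -0.40 to 0.53. The diet with the widest range was 2% RPS, whose libraries held both the highest mean z and the second lowest.

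Of the 36 pairs of members, 35 had a Pearson correlation above 0 over the 20 libraries, with a median r of 0.46 (range -0.09 to 0.89). The median over all pairs of 12348 genes was -0.004, and 8.16% of those pairs exceeded 0.46. With the diet means removed, the median of the members was 0.39 and 31 of 36 pairs stayed above 0. The points of each pair share their libraries, and so their depth and tissue makeup. The 10 pairs among Fos, Egr1, Junb, Ier2, and Zfp36 had r of 0.68 to 0.89 with a median of 0.77, 0.67 to 0.89 within diets, and at least 0.60 with any 1 library left out. The 20 pairs of these 5 with Atf3, Jun, Dusp1, and Nr4a1 had a median of 0.37 and ran from 0.03 to 0.69. The highest of them, Fos with Dusp1, was above Fos with Ier2 among the 10. The 5 were grouped after their values were seen, so the high r among them is a description, and the difference was not tested.

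The highest r was that of Egr1 with Zfp36, 0.89 (permutation p = 1e-05, the smallest that 100000 permutations can give; rho = 0.80, permutation p = 8e-05). Adjusted over the 12347 other genes, its p was 0.082 with Egr1 as the reference and 0.041 with Zfp36. Without the 2 libraries farthest from the median of Egr1, r was 0.87, and within diets 0.85. Junb with Ier2 had r = 0.86 (permutation p = 1e-05, rho = 0.88, permutation p = 1e-05), 0.85 without the 2 farthest, and 0.89 within diets, and its adjusted p was 0.012 with Junb and 0.015 with Ier2 as the reference. Fos with Egr1 had r = 0.80 (permutation p = 2e-05, rho = 0.78, permutation p = 0.00013), with adjusted p of 0.015 and 0.082. The p-values are two-sided. An adjusted p of at most 0.05 against both genes was reached by 2 of the 36 pairs, Junb with Ier2 and Junb with Zfp36, and against either gene by 10. With Fos, Junb, Ier2, and Zfp36 as the reference, 1.68, 0.227, 0.211, and 0.0243% of all genes passed.

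Atf3 had lower r with those 5 members, a grouping made after their values were seen. It was 0.05 with Junb, 0.09 with Zfp36, 0.23 with Egr1, 0.30 with Ier2, and 0.46 with Fos (permutation p = 0.044, rho = 0.48, permutation p = 0.034, adjusted p = 0.29). Within diets these values ran from -0.21 to 0.25. Its closest member was Dusp1, with r = 0.68 (permutation p = 0.00097, rho = 0.57, permutation p = 0.010, adjusted p = 0.14) and 0.67 within diets. Without the 2 libraries farthest from the median of Atf3, the r over libraries was 0.55 with Dusp1. In that setting it was 0.53 with Fos, 0.44 with Egr1, 0.14 with Ier2 and with Zfp36, and 0.03 with Junb. Leaving out 1 library moved the r of Atf3 with Fos between 0.33 and 0.66, and that with Junb between -0.06 and 0.32. Jun was likewise closer to Dusp1 (r = 0.59, permutation p = 0.0056, rho = 0.56, permutation p = 0.012, adjusted p = 0.082) than to Junb (0.03), and Jun with Nr4a1 was the 1 pair below 0 (-0.09). The 2% RPS replicate 3 library gives an example in 1 animal, with 798 normalised counts of Atf3, above all 0% RPS libraries, beside the lowest Junb, Ier2, and Zfp36 counts of the 20. That library also had the lowest goblet cell marker level of the 20, 14.61 as mean log2 normalised count, and the highest blood marker level, 9.58. The part of these in its values was not tested. At 0% RPS replicate 3 the order was turned, with the highest Egr1 of all libraries and the lowest Atf3. Whether the correlation of Atf3 differs from that of the other members was not tested.

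**Figure D4:**
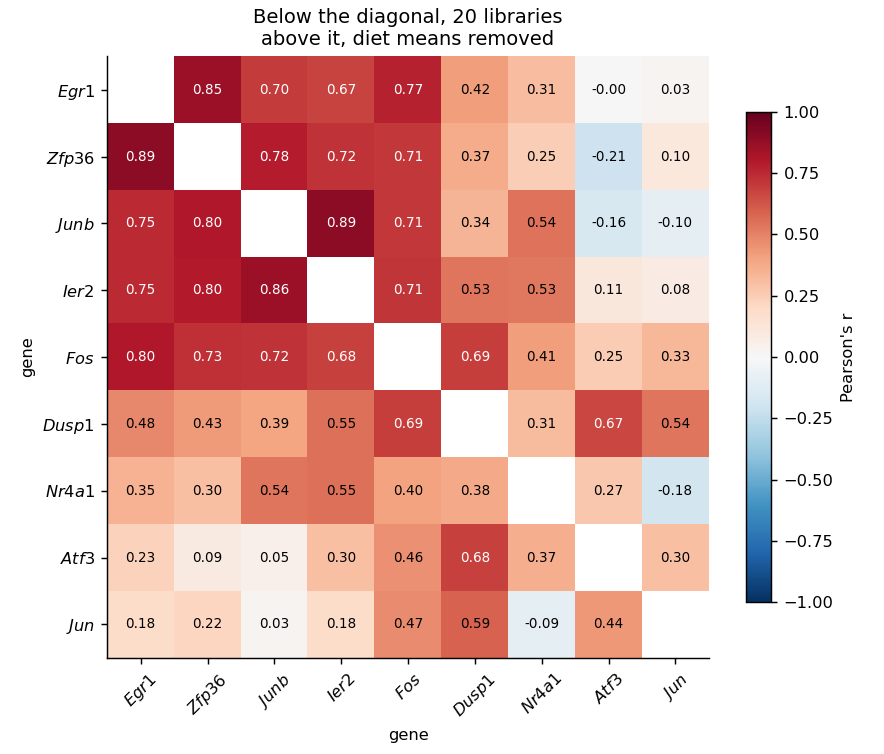
Pearson's r between the 9 members (rows and columns), over the 20 libraries below the diagonal and with diet means removed above it, coloured from -1 (blue) to 1 (red). The block of Egr1, Zfp36, Junb, Ier2, and Fos has r of at least 0.68 below the diagonal, while Atf3 and Jun are pale against it.

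Of the marker lists, those of epithelium and goblet cells moved most closely with the members. The mean log2 level of 10 epithelium markers had r = 0.74 with the mean z of the 9 members and that of 7 goblet cell markers r = 0.77, beside -0.05 for 10 smooth muscle markers, -0.19 for 6 fibroblast markers, -0.36 for endothelium, 0.02 for enteric neurons and glia, 0.30 for T and B cells (2 of 8 markers measured), -0.17 for macrophages and granulocytes, -0.25 for fat and mesentery, and -0.18 for blood. Total counts had r = -0.06. The markers of a list were uneven. With diet means removed, single epithelium markers had r with the mean z from 0.04 (Car1) to 0.75 (Krt8), and goblet cell markers from 0.12 (Muc2) to 0.74 (Zg16). For single members, goblet cell markers had r of 0.83 with Junb, 0.79 with Fos, and 0.78 with Ier2 but 0.30 with Atf3 and 0.19 with Jun. The goblet cell level was 14.85 to 15.19 at 0% RPS, 14.61 to 15.73 at 2%, 15.32 to 15.64 at 5%, and 15.22 to 15.75 at 10% RPS, so every library at 5 and 10% RPS was above every library at 0% RPS. All 7 goblet cell markers were higher in each starch diet, none was called against 0% RPS, and Agr2, a protein disulfide isomerase of secretory cells, rose in the trend. Of the 10 epithelium markers, 9, 8, and 9 were higher at 2, 5, and 10% RPS with none called, and Epcam, an epithelial adhesion molecule, rose in the trend. All listed epithelium, goblet cell, and smooth muscle markers of the labelled tissue were in the count table. The trends of Agr2 and Epcam passed in 13 and 16 of the 20 fits without 1 library and in edgeR neither did (adjusted p = 0.097 and 0.12). The part of these levels in the members' values was not tested. With the smooth muscle level regressed out, the median r of the members was 0.53. That level had r = -0.05 with the mean z, and the epithelium and goblet cell levels were not regressed out. The value therefore cannot say how much of the members' correlation goes with tissue makeup.

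Among 32 measured other immediate-early genes (of 37 listed), 0 were called at 2% RPS and 1 each at 5 and 10% RPS, the same gene, Hbegf (ENSMUSG00000024486), which encodes heparin-binding EGF-like growth factor, a ligand of the EGF receptor. Its normalised counts were 426, 642, 599, 407 and 291 at 0% RPS and 993, 1511, 369, 475 and 804 at 2% RPS. They were 1161, 1104, 923, 782 and 892 at 5% RPS and 1012, 1149.6, 1429.8, 750 and 952 at 10% RPS. All libraries at 5 and 10% RPS lay above the highest at 0% RPS, whereas 2% RPS spanned both. Hbegf rose on the log2 scale by 1.04 ± 0.28 (SE, adjusted p = 0.027) at 5% and 1.16 ± 0.28 (SE, adjusted p = 0.0045) at 10% RPS, with edgeR adjusted p of 0.14 and 0.063, and had 0.81 ± 0.28 (SE, adjusted p = 0.42) at 2% RPS. With each of the 20 libraries left out in turn and p adjusted over all genes, Hbegf passed in 20 fits at 10% RPS and in 11 at 5% RPS. The median log2 fold change of the 32 was 0.12, 0.09, and 0.14, and 26, 21, and 23 of them were above 0. Per1, a clock gene that is also an immediate-early gene, fell in the trend by 0.06 per percent RPS (adjusted p = 0.043), a call kept in 10 of the 20 fits without 1 library and lost in edgeR (adjusted p = 0.10), and 20 of the 32 had a slope above 0.

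In the other lists, no gene was called in a comparison with 0% RPS. Among 16 measured AP-1 and ATF family genes (of 20), 9, 11, and 12 had values above 0 at 2, 5, and 10% RPS, with medians of 0.03, 0.03, and 0.06, and none had a called trend. Of 17 genes listed as feedback inhibitors (of 19), among them Ier3ip1, which is not known as one, 12 were above 0 at each dose. Nfkbiz, a nuclear regulator of NF-κB family signalling, rose in the trend by 0.05 per percent RPS (adjusted p = 0.0033). Its mean went from 1454 ± 326 at 0% RPS to 2068 ± 299.9 at 10% RPS (SD, n = 5). Of 20 genes of MAP kinase and serum response factor input, 10, 10, and 11 were above 0, and Map2k4, a kinase of the JNK pathway, rose in the trend by 0.02 per percent RPS (adjusted p = 0.0020). The trends of Nfkbiz and Map2k4 passed in all 20 fits without 1 library and in edgeR (adjusted p = 0.038 for each). Of 14 ATF4 stress response targets (of 16), 9, 8, and 10 were above 0, with medians of 0.08, 0.03, and 0.09 and none called, and of 6 corepressors and partners of NR4A and EGR proteins 2, 1, and 2 were. Atf4 itself had 0.34 ± 0.10 (SE, adjusted p = 0.039) at 5% RPS, a fold of 1.27 that was under the fold threshold.

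Hbegf was also the gene whose pattern was most like the members' mean z among the 12348 genes, with r = 0.88 (rho = 0.80) over the 20 libraries and 0.87 within diets. Its r with Fos was 0.90. Others near the top were Id1 (0.85) and Id3 (0.83), inhibitors of basic helix-loop-helix factors, Emc6 (0.84), a subunit of a membrane protein complex of the endoplasmic reticulum, Ier3 (0.82), an immediate-early gene, the small nucleolar RNA Snora31 (0.82), C2cd4b (0.81), Ndst1 (0.81), an enzyme of heparan sulfate sulfation, and Ss18l2 (0.80). Snora31 had a mean of 11.3 normalised counts. The lowest were Hdac10 (-0.84), a polyamine deacetylase, Tmem175 (-0.83), a lysosomal channel, Sesn1 (-0.79), Enpp2 (-0.78), which encodes autotaxin, and Amz2 (-0.77). Across all genes the median was -0.01, with 79 genes above 0.7 and 27 below -0.7. These genes were taken as extremes of 12348, so their r is a description with no test.

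The genes most like Atf3 itself were Errfi1 (r = 0.84), 2410004B18Rik (0.80), Atf4 (0.78), Clp1 (0.78), and Crip1 (0.76). Errfi1 is a feedback inhibitor of the EGF receptor, Atf4 the transcription factor of the integrated stress response, and Clp1 an RNA kinase. In the order named, their r with the members' mean z, which includes Atf3, was 0.50, 0.60, 0.61, 0.48, and 0.67. With Fos it was 0.41, 0.49, 0.54, 0.36, and 0.62, and with Egr1 0.13, 0.30, 0.34, 0.20, and 0.29. These genes were taken as extremes. With Atf3 as the reference, no gene reached an adjusted p of at most 0.05. Among the lists, the genes most like the mean z were Jund (0.69), Atf4 (0.61), and Batf2 (0.60) of the AP-1 and ATF family, with Atf2 lowest (-0.45). Of the other immediate-early genes they were Hbegf, Ier3, and Ccn1 (0.69), a matricellular protein, with Btg1 lowest (-0.38). In the list of feedback inhibitors they were Ier3ip1 (0.60), which is listed there but not known as one, Spry2 (0.57), and Nfkbiz (0.53). Spry2 is an inhibitor of receptor tyrosine kinase signalling, and Zfp36l1 was lowest in that list (-0.37). Of the MAP kinase genes they were Map2k1 (0.61), which encodes MEK1, Map2k2 (0.36), and Map2k4 (0.34), with Erbb3 lowest (-0.51). Of the ATF4 targets they were Mthfd2 (0.54), Asns (0.52), and Ppp1r15a (0.38), with Sesn2 lowest (-0.25), and of the corepressors and partners Rxra (0.15), Nab2 (0.01), and Ncor1 (-0.14), with Rxrb lowest (-0.47). The median r of the lists ran from -0.15 for the corepressors and partners to 0.33 for the other immediate-early genes.

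**Figure D5:**
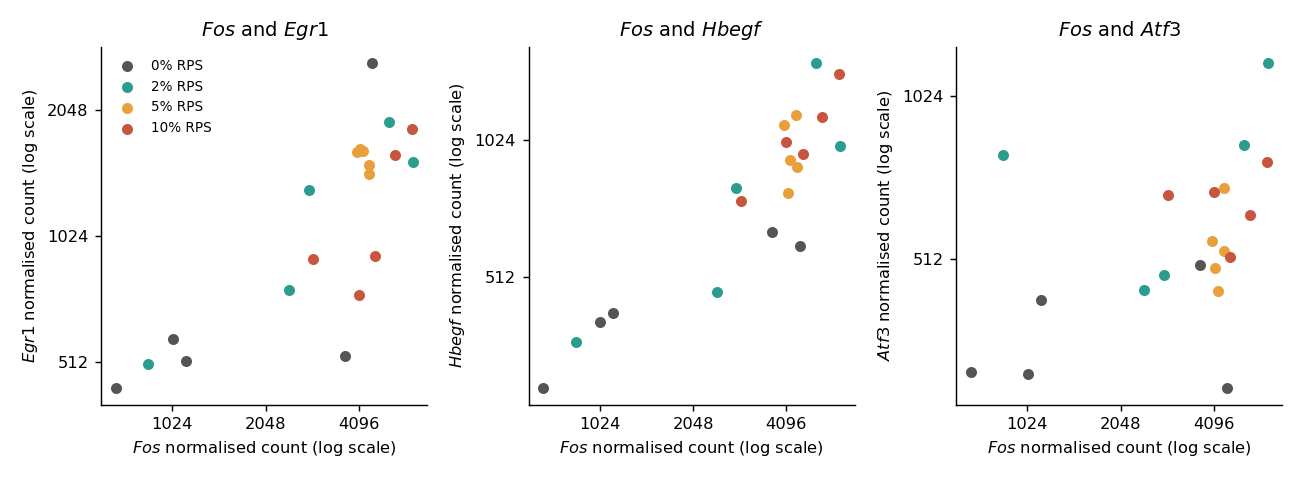
Normalised counts of Fos (x axes) against those of Egr1, Hbegf, and Atf3 (y axes), all on log scales, with 1 point per library coloured by diet. Fos and Hbegf lie along a line (r = 0.90), Fos and Egr1 do so more loosely (0.80), and for Atf3 (0.46) the 0% RPS library with 4515 counts of Fos holds the lowest Atf3.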

How the data were processed

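The PC of 20 mice, 5 per diet, gave 1 stranded mRNA library each, read from 1 end over 50 bases. According to the study's methods, the authors trimmed low-quality bases, dropped reads holding over 2 ambiguous bases, aligned and counted reads in CLC Genomics Workbench on GRCm39 (the build is also named in the submitters' processing notes), and deposited whole-number counts per Ensembl gene; the annotation, strand use, handling of multi-mapping reads, and how these 12701 genes were kept are not given in the sources used here. Of the gene IDs, 12682 matched GENCODE M39, which gave symbols and coordinates, and all columns were used.

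The 4 diet groups came from the labels, 1 library per mouse, with replicates numbered in accession order. Counts were normalised with DESeq2 size factors (DESeq2 1.42.0, R 4.3.3) and tested across all genes and all 20 libraries by the Wald test, after the study's own methods, with Benjamini-Hochberg adjusted p of at most 0.05 and an unshrunken fold of at least 1.5. The trend was fitted as a slope per percent RPS with no fold threshold. The 95% confidence intervals are normal intervals from the SE. edgeR 4.0.16 (quasi-likelihood test) and the other settings named in the closing section were alternatives. Correlations used log2(normalised count + 1) over the 12348 genes with a mean of at least 10, with 100000 permutations, and p adjusted over all genes paired with the reference gene. Scripts were tested on simulated data. Promoters were read from the GRCm39 genome with GENCODE M39 start sites and, for Zfp36, from the RefSeq promoter table. Depth, 20581013 to 35083751 counts with a median of 26354926, limits the least expressed genes, not the members.

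Named beyond the 9 members were list genes that passed a test, the 3 genes of each list with the highest and the 1 with the lowest r to the members' mean z, the 10 highest and 5 lowest of all genes, and the 5 most like Atf3. Some genes that this rule names are not reported here. The members and lists were chosen with earlier results of these data known.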

Additional observations from a re-analysis of the deposited data

Results flagged for a closer look

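In groups of 5 libraries, 1 value was set apart when its gap to the nearest of the others exceeded 0.71 of the group's range (Dixon's 95% critical value), which chance gives in about 1 of 20 groups. Among the 9 members this marked 6 of 36 groups, and over the 20 genes whose library values were examined 9 of 80. The 0% RPS replicate 3 library was high for Egr1 (2650 normalised counts), Ier2 (1639), and Zfp36 (4752), and also for Map2k4 (1642). Nr4a1 was high in 2% RPS replicate 2 (1259) and low in 10% RPS replicate 3 (313.9), and Jun was low in 5% RPS replicate 1 (2145). Outside the members, Map2k4 was high in 10% RPS replicate 5 (2141) and Id3 low in 5% RPS replicate 2 (2975). The causes were not tested.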

How the results depend on the processing

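At 2% RPS the 1 called member, Atf3, became 0 with edgeR and with only the 2 diets compared in the fit (adjusted p = 0.59 and 0.11), and leaving out 1 library gave 0 to 1. At 10% RPS the count of 1 became 0 with edgeR, and leaving out 1 library gave 0 to 3. At 5% RPS the count of 0 became 1 with the smooth muscle marker level as a covariate (Atf3), and leaving out 1 library gave 0 to 2. The share of all genes called in each fit without 1 library is not given here. The counts of members in those fits, here and below, can therefore not be set against it. With p adjusted over all genes, without independent filtering, an alternative chosen after seeing the data, the count at 2% RPS was 0 without 0% RPS replicate 3, 4, or 5 and without 2% RPS replicate 1 or 2; at 5% RPS it was 2 without 0% RPS replicate 3; at 10% RPS it was 3 without 0% RPS replicate 3 and 0 without 0% RPS replicate 4, 0% RPS replicate 5, or 10% RPS replicate 3. The causes were not tested. In that setting Atf3 passed in 15 of 20 fits at 2% RPS, 0 at 5%, and 17 at 10% RPS, with log2 fold changes of 0.79 to 1.15, 0.45 to 0.68, and 0.74 to 0.95. No alternative turned the direction of a member's fold change against 0% RPS. The counts of 0 for the trend and between starch diets did not change wherever every member had an adjusted p. Independent filtering left some members without one at 2% RPS in the fits without 0% RPS replicate 1 and without 2% RPS replicate 4, at 5% RPS (Egr1) with only the 2 diets compared, and between starch diets with TMM factors and in 4 fits without 1 library. The median r of the members was 0.46 with variance-stabilised counts and with log2 CPM, 0.47 as rho, 0.39 with diet means removed, 0.51 without the 3 libraries whose label numbers stand outside the run of the others, and 0.38 to 0.52 with 1 library left out. Those 3 libraries were 2% RPS replicate 5 and 10% RPS replicates 4 and 5, with none at 0 or 5% RPS. Without them Atf3 stayed called at 2 and 10% RPS. No paired analysis was possible because the labels give the diets no shared replicate numbers. With 5 mice per diet, the spread of Fos and Egr1 between mice limits what change could be shown.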
